A study of Mus musculus with 12 samples.

Results

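The endothelial genes considered here are Pecam1, Cdh5, Kdr, Flt1, Tek, Tie1, Emcn, Eng, Vwf and Plvap, 10 of the 30142 genes measured in mouse pancreas tumours. They were chosen by name as markers of the cells that line blood vessels, and each was read from the only probe set that the platform annotation assigned to that symbol alone. The 12 tumours came from PKT mice, which develop pancreatic ductal adenocarcinoma because a pancreas-directed Cre, among other changes, deletes Tgfbr2. They form 2 lines with 6 mice each and 1 array per mouse. The first line holds 3 tumours called FAP-TK control and 3 called FAP depleted, and the second 3 called aSMA-TK control with 3 called aSMA depleted. TK is a thymidine kinase that turns ganciclovir into a toxin, placed in the cells that express FAP (fibroblast activation protein) or aSMA (alpha smooth muscle actin). The labels give ganciclovir at 50 ug per kg for all 12 mice and call the controls non-depleted. How the controls were spared, and how old the mice were, is not given in the sources used here. In a whole tumour, fewer cells of a type and less RNA per cell cannot be told apart.

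Endothelial cells form the inner wall of vessels and need contact with pericytes and smooth muscle, cells that include many of those that make aSMA. Growth of new vessels is driven by VEGF ligands acting on Kdr (VEGFR2), while Flt1 (VEGFR1) binds the same ligands and limits the signal. Angiopoietins act on Tek (TIE2), with Tie1 as its partner, to hold vessels stable. Pancreatic ductal adenocarcinoma is known as a tumour with few vessels inside a dense stroma.

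Values are the authors' processed intensities on what reads as a log2 scale, quantile normalised here, and differences are given in these log2 units. Depletion was checked on the targeted genes. Fap had 6.56, 7.31 and 6.53 in the FAP-TK controls and 5.52, 5.34 and 6.21 after FAP depletion, lower in all 3, with a difference of -1.11 ± 0.37 (SE; limma adjusted p = 1.00). Acta2, the gene of aSMA, had 12.26, 10.85 and 11.12 in the aSMA-TK controls and 10.13, 13.86 and 15.28 in the depleted group. Its mean was thus not lower there (1.68 ± 1.71, adjusted p = 0.949), although replicate 1, at 10.13, lay below all 3 controls. The error was larger than the difference, so a fall of Acta2 was neither shown nor excluded. Because the depletion was not seen in this gene, that group is called the tumours labelled aSMA depleted. The fall of Fap did not pass the test either, so the wording of FAP depletion also follows the label. Epithelial genes averaged 13.72 to 15.85 per tumour. Control-probe separation, the median of the positive minus that of the negative control probe sets, was 2.69 to 2.99 on 3 arrays (FAP-TK control replicates 1 and 3 and FAP depleted replicate 2) and 4.32 to 4.89 on the other 9. All 10 endothelial genes exceeded the median of the 23 background probe sets on every array. Against the brightest background probe set of the same array, Cdh5, Kdr, Emcn and Eng were higher on all 12 arrays, Pecam1 on 11, Flt1 on 10, Plvap on 8, Tie1 on 6, Tek on 4 and Vwf on 2. Against the 5222 negative control probe sets, Cdh5 and Eng were above the 95th percentile on 7 arrays, Pecam1, Emcn and Plvap on 1, and the other 5 genes on 0. Vwf was above even the median of those probe sets on only 6 of the 12.

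None of the 10 genes passed the test in either depletion comparison or in the difference between them (limma, Benjamini-Hochberg over all genes, adjusted p under 0.05), where the tool also called 0% of all genes. At an unadjusted p under 0.05 it gave 0 of the 10 in the FAP line, 1 (Vwf) in the aSMA line and 0 for the difference between the effects, against 3.71%, 4.81% and 5.96% of all genes. The difference between the effects (aSMA minus FAP) was above 0 for 7 of the 10 (median 0.26, adjusted p 0.841 to 0.992) and for 46.4% of all genes. The mean of the 10 genes was 6.18, 7.69 and 5.44 in the FAP-TK controls, 7.32, 5.18 and 7.20 after FAP depletion, and 7.29, 7.35 and 6.83 in the aSMA-TK controls against 7.21, 7.22 and 8.29 in the tumours labelled aSMA depleted. The 3 lowest means belonged to the 3 arrays of low control-probe separation. The highest, aSMA depleted replicate 3, was also the array of greatest separation.

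**Figure D1:**
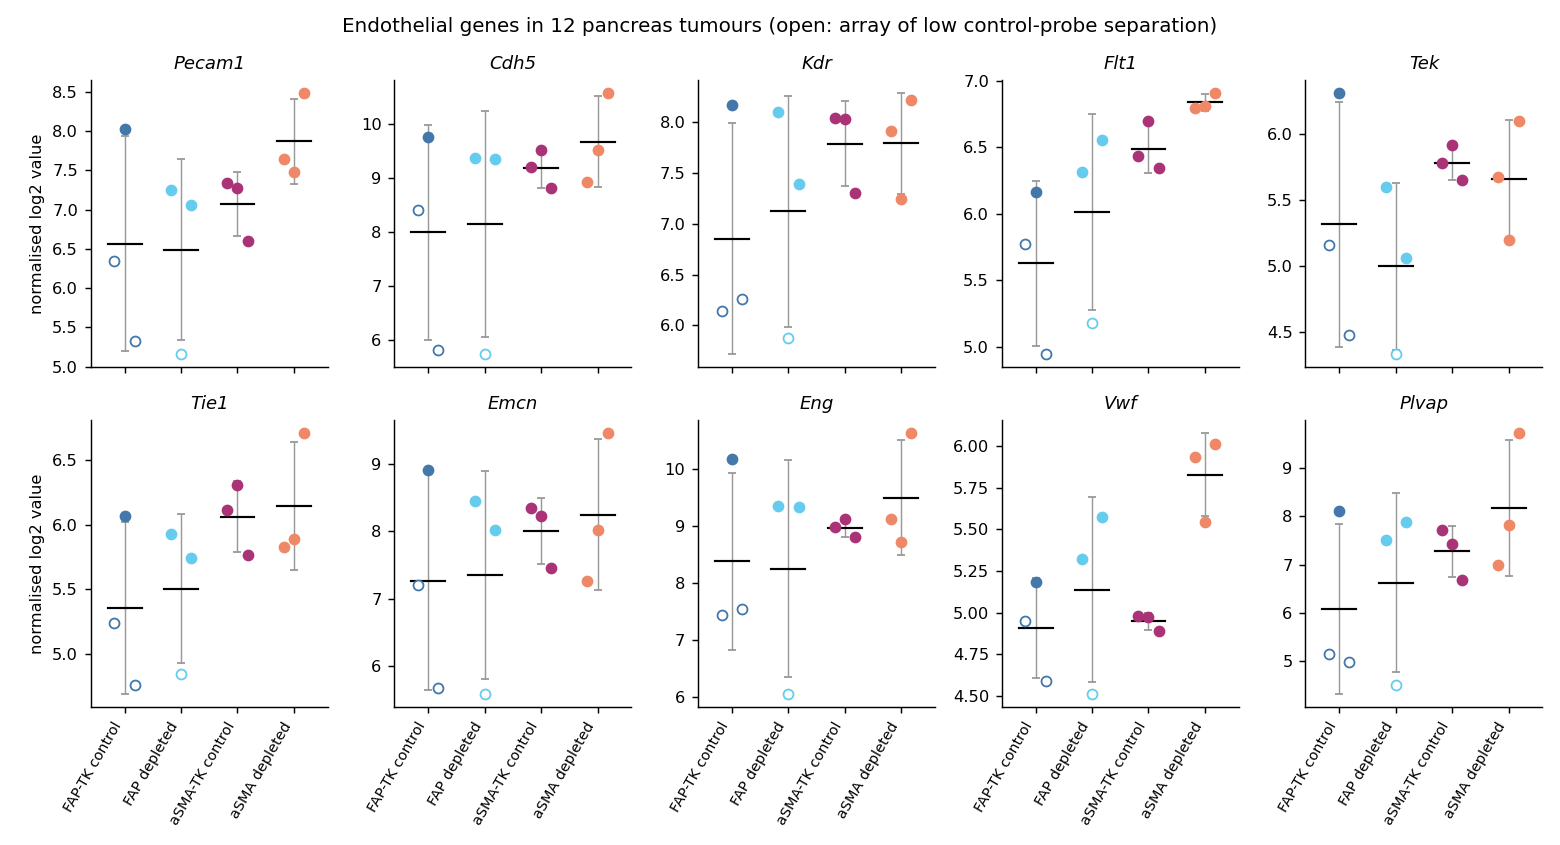
Normalised log2 value (y axis) of each endothelial gene in each tumour, by group (x axis), with the group mean as a bar and the SD as a whisker; open circles are the 3 arrays of low control-probe separation. In every panel except those of Tek and Vwf, the 3 open circles lie below all 9 filled ones, and Vwf is the gene whose 3 values in the tumours labelled aSMA depleted (5.54 to 6.01) lie farthest above their controls (4.89 to 4.98) relative to the spread.

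Pecam1 and Cdh5 encode adhesion molecules of the junctions between endothelial cells, CD31 and VE-cadherin. Pecam1 stood at 6.34, 8.03 and 5.33 in the FAP-TK controls against 7.25, 5.16 and 7.05 after FAP depletion, a difference of -0.08 ± 0.71 (SE, n = 3 per group; limma adjusted p = 1.00). These groups overlapped almost fully. In the aSMA line the controls had Pecam1 values of 7.34, 7.27 and 6.60, while the tumours labelled depleted had 7.65, 7.48 and 8.49. All 3 of the latter lay above all controls, by 0.80 ± 0.71 (limma adjusted p = 0.944, exact permutation p = 0.1, the smallest that 3 against 3 allows). Cdh5 had 8.40, 9.76 and 5.81 in the FAP-TK controls and 9.38, 5.73 and 9.35 after depletion. The aSMA-TK controls gave 9.20, 9.53 and 8.82, and the tumours labelled aSMA depleted 8.93, 9.53 and 10.58. The Cdh5 differences of 0.16 ± 1.13 and 0.50 ± 1.13 were smaller than their errors, and the values overlapped in both lines.

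Neither VEGF receptor passed the test in either line. Kdr, the main signalling receptor, stood at 6.14, 8.16 and 6.26 in the FAP-TK controls and 8.10, 5.88 and 7.39 after FAP depletion (0.27 ± 0.65). It was at 8.04, 8.03 and 7.30 in the aSMA-TK controls against 7.91, 7.24 and 8.22 in the tumours labelled aSMA depleted, with group means of 7.79 and 7.79. The 95% interval of that last difference ran from -1.44 to 1.45, so a shift of more than 1 unit either way lies within it. Flt1, the decoy-like receptor, was at 5.77, 6.16 and 4.95 in the FAP-TK controls and 6.31, 5.18 and 6.56 after depletion (0.39 ± 0.37). Its values were 6.43, 6.70 and 6.34 in the aSMA-TK controls against 6.79, 6.81 and 6.91 in the tumours labelled aSMA depleted. The latter were all above the controls by 0.35 ± 0.37 (limma adjusted p = 0.95, exact permutation p = 0.1).

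Tek and Tie1, the angiopoietin receptor and its partner, were near the background signal on most arrays. Tek had 5.16, 6.31 and 4.48 in the FAP-TK controls and 5.60, 4.34 and 5.06 after FAP depletion, a difference of -0.32 ± 0.45. In the aSMA line it had 5.78, 5.91 and 5.65 in the controls and 5.67, 5.20 and 6.10 in the tumours labelled depleted (-0.12 ± 0.45). It was the only endothelial gene whose mean was lower in the latter. Tie1 had 5.24, 6.07 and 4.76 against 5.92, 4.85 and 5.74 in the FAP line (0.15 ± 0.39), and 6.11, 6.30 and 5.76 against 5.83, 5.89 and 6.71 in the aSMA line (0.08 ± 0.39), controls first. Depleted and control tumours overlapped for both receptors in both lines.

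Emcn, Eng and Plvap encode surface proteins of endothelium: endomucin of capillaries and veins, the TGF-beta and BMP co-receptor endoglin, and the protein of the diaphragms in fenestrated vessels such as those of the pancreas. They had some of the widest spreads, with a within-group SD of 1.27, 1.33 and 1.48. Emcn was at 7.21, 8.91 and 5.69 in the FAP-TK controls and 8.45, 5.59 and 8.01 after depletion, and at 8.35, 8.22 and 7.45 in the aSMA-TK controls against 7.27, 8.02 and 9.46 in the tumours labelled aSMA depleted. Eng was at 7.44, 10.18 and 7.54, then 9.37, 6.05 and 9.35, then 8.98, 9.14 and 8.82, and last 9.13, 8.73 and 10.65 in the same groups. In the FAP line these genes were high and low in the same tumours, with FAP-TK control replicate 2 highest. Plvap ranged most, over 5.22 units. It was at 5.15, 8.11 and 4.99 in the FAP-TK controls, 7.51, 4.50 and 7.87 after depletion, and 7.71, 7.44 and 6.68 in the aSMA-TK controls against 6.99, 7.81 and 9.73 in the tumours labelled aSMA depleted. Depletion differences of the 3 genes lay between -0.13 and 0.90, with standard errors of 0.94 to 1.10, and no pair of groups separated.

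Vwf, which encodes the clotting protein von Willebrand factor stored in endothelial cells and platelets, had the smallest p of the 10 genes in the aSMA line, on a probe set that exceeded the brightest background probe set on 2 of 12 arrays. It stood at 4.98, 4.97 and 4.89 in the aSMA-TK controls and at 5.93, 5.54 and 6.01 in the tumours labelled aSMA depleted. The groups were apart, by 0.88 ± 0.26 (95% interval 0.30 to 1.46, limma unadjusted p = 0.00727, adjusted p = 0.944, exact permutation p = 0.1), so the gene did not pass over all genes. Under 21 alternative settings that kept the gene this difference ran from 0.41 to 1.02, with unadjusted p under 0.05 in 21 and adjusted p from 0.513 to 1.00. In the FAP line Vwf had 4.95, 5.19 and 4.59 in the controls and 5.32, 4.51 and 5.58 after depletion (0.23 ± 0.26), and the difference between the effects did not pass (0.65 ± 0.37, adjusted p = 0.841). The platelet and megakaryocyte list, which marks another source of Vwf, averaged 4.29 to 4.65 in the aSMA-TK controls and 4.81 to 5.11 in the tumours labelled aSMA depleted. Its part in the Vwf difference was not tested.

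In all, 7 of 10 endothelial genes were higher after FAP depletion, with a median difference of 0.16 against 0.04 for all genes, and 59.9% of all genes were higher. Depleted and control values overlapped for all 10, while 8.10% of all genes did not overlap (5.60% higher, 2.50% lower). In the aSMA line 9 of 10 were higher in the tumours labelled depleted, with a median of 0.42 against 0.01 for all genes, of which 53.2% were higher. There 3 of 10 genes (Pecam1, Flt1 and Vwf) did not overlap, each higher, against 7.43% of all genes not overlapping on that side (12.5% on either side, 5.08% lower). The same 3 genes separated in the deposited and in the median-centred values. Without aSMA depleted replicate 3, however, the mean difference over the 10 genes fell from 0.42 to 0.06, with 5 higher and 5 lower. Pecam1 was then left with 7.65 and 7.48. These had to stay above the 3 controls, because all 3 of its values had lain above them.

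Without the 3 arrays of low separation, 1 control and 2 depleted tumours were left in the FAP line. The mean difference over the endothelial genes then turned from 0.13 to -0.43, with 8 of 10 lower, and Tek, at -0.98 ± 0.37, had the smallest unadjusted p (0.0332, limma adjusted p = 0.409). With 1 control left, its spread was assumed to be like that of the other groups, so this p holds no measure of the spread among FAP-TK controls. With separation as a covariate the mean was -0.31. Leaving out single FAP-TK controls gave 0.00 (replicate 1), 0.76 (replicate 2) and -0.37 (replicate 3). Leaving out single FAP depleted tumours gave -0.25 (replicate 1), 0.82 (replicate 2) and -0.19 (replicate 3). With array weights, which left no array out, the mean was 1.25, with 10 of 10 higher and a smallest limma adjusted p of 0.118 (Flt1). The sign of the mean endothelial difference after FAP depletion thus depended on which arrays were kept and on the covariate. Its size also depended on the weighting of the arrays. The difference between the effects, above 0 for 7 of 10 with all arrays (mean 0.29), was above 0 for 10 of 10 without the 3 arrays (mean 0.84). It turned below 0 for 9 of 10 with array weights (mean -0.81), for 8 of 10 without FAP-TK control replicate 2 (-0.34) or FAP depleted replicate 2 (-0.41) and for 7 of 10 without aSMA depleted replicate 3 (-0.07), with none called.

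**Figure D2:**
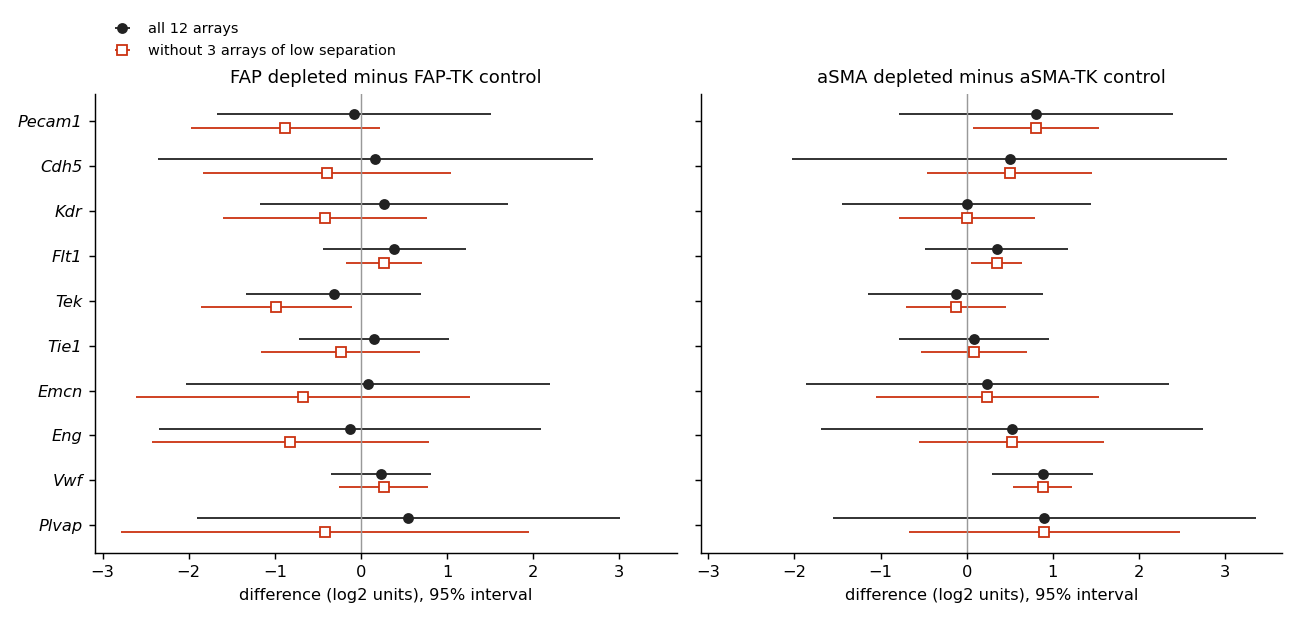
Difference between depleted and control tumours for each endothelial gene (x axis, log2 units, with limma's 95% interval) in the FAP line (left) and the aSMA line (right), from all 12 arrays (black circles) and without the 3 arrays of low control-probe separation (red squares). Intervals from all arrays include 0 for every gene and line except Vwf in the aSMA line, and the FAP estimates move to the left without those arrays for all genes except Vwf. The 3 arrays are all of the FAP line, so the aSMA estimates stay the same and only their intervals narrow.

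In all, 8 of the endothelial genes were lower on each of the 3 arrays of low separation than on any of the other 9, against 13.5% of all genes. The exceptions were Tek, where FAP depleted replicate 3 at 5.06 lay below FAP-TK control replicate 1 at 5.16, and Vwf, where aSMA-TK control replicate 3 at 4.89 lay below FAP-TK control replicate 1 at 4.95. Kdr, for example, was at 5.88 to 6.26 on those 3 arrays and 7.24 to 8.22 on the rest. Plvap was at 4.50 to 5.15 and 6.68 to 9.73. The negative control probe sets of the 3 arrays had medians of 6.39 to 6.49 before normalisation. Those medians were 5.46 to 5.62 on the other arrays of the FAP line and 4.46 to 4.88 on those of the aSMA line, so they also differed by line. Of other lists, 5 of 9 pericyte, 5 of 10 Notch and ephrin and 6 of 19 further pan-endothelial genes were lower on all 3 arrays. So were 3 of 6 islet, 3 of 10 epithelial, 3 of 9 smooth muscle, 3 of 11 macrophage, 0 of 10 fibroblast and 0 of 8 acinar genes, so the pattern was not confined to vessel genes. At the other end, aSMA depleted replicate 3 held the highest value of 9 of the 10 genes, and FAP-TK control replicate 2 that of Tek. The part of array signal in the tumour-to-tumour pattern was not tested.

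**Figure D3:**
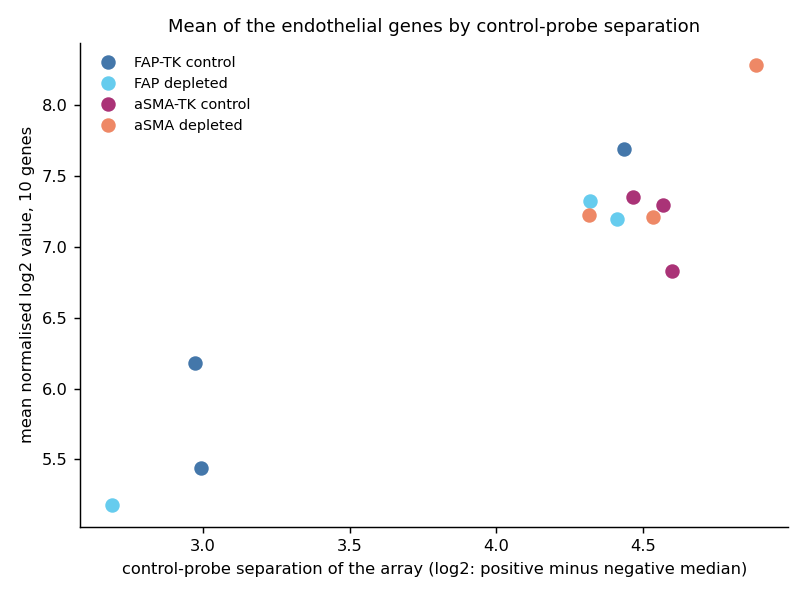
Mean normalised log2 value of the 10 endothelial genes per tumour (y axis) against the control-probe separation of its array (x axis, log2), coloured by group. The arrays fall into a set of 3 at 2.69 to 2.99 with means of 5.18 to 6.18 and a set of 9 at 4.32 to 4.89 with means of 6.83 to 8.29.

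With group means removed, the 45 pairs of endothelial genes had a median Pearson's r of 0.89 over the 12 arrays (lowest 0.77 for Kdr with Flt1, highest 0.98 for Tie1 with Emcn). These values are a description, since all pairs share the same arrays. Over the 8 arrays of good separation that still had another of their group, the median was 0.65, with pairs from 0.10 to 0.96. Against the mean of the other 9 genes, r then stayed at 0.95 for Pecam1, 0.98 for Tie1, 0.92 for Emcn, 0.91 for Cdh5 and 0.91 for Eng. It fell to 0.67 for Kdr, 0.49 for Vwf and 0.43 for Flt1. Other lists had a median pairwise r, over 12 arrays, of 0.86 (macrophage), 0.81 (smooth muscle), 0.60 (further pan-endothelial genes), 0.57 (pericyte) and 0.08 (platelet).

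**Figure D4:**
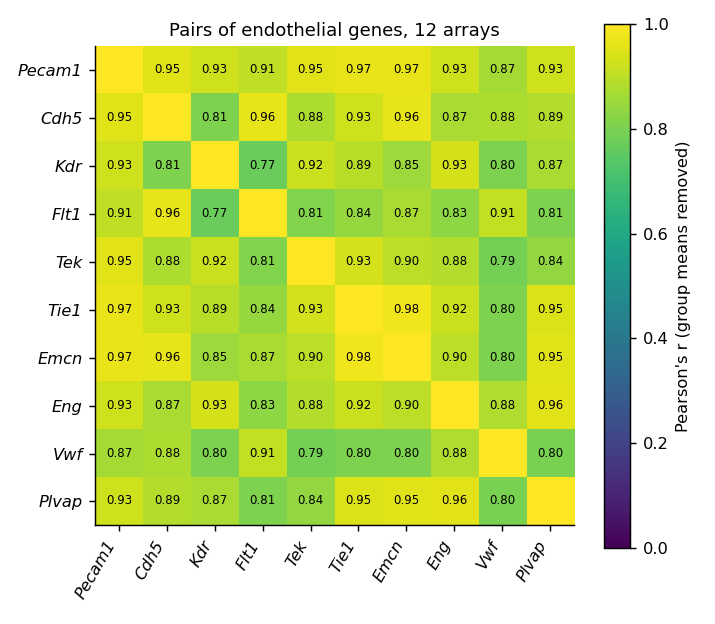
Pearson's r between each pair of endothelial genes over 12 arrays after each value had its group mean taken away, as colour and number. The weakest rows are those of Vwf, Kdr and Flt1, and the pair Kdr and Flt1 has the lowest value, 0.77.

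Among 15061 other genes with a mean above the median of all genes, those most like the mean of the 10 were Adgrf5 (r = 0.99), Lgalsl (0.98), Gm6781 (0.98), Adgrl4 (0.98), Mmrn2 (0.97), Cyb5b (0.97), Nubp2 (0.97), Gna12 (0.97), Mfsd5 (0.97) and Fdft1 (0.97), over 12 arrays with group means removed. Adgrf5, Adgrl4 (also called ELTD1) and Mmrn2, the CLEC14A ligand multimerin 2, are known endothelial genes, while Fdft1 encodes squalene synthase and Gna12 a widely expressed G protein subunit. Of the genes searched, the 10 endothelial ones included, 1.57% had an r over 0.9 and the median was 0.39. Adgrf5 was higher by 1.13 and Adgrl4 by 0.69 in the tumours labelled aSMA depleted, and they differed by -0.20 and 0.09 in the FAP line.

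Promoter sequences were set beside this joint movement, because ETS factors such as ERG and FLI1 are known regulators of many endothelial genes. RefSeq sequence of GRCm38.p6, from 250 bases before to 50 after the start, was given for 6 of the 10 (Eng, Emcn, Tek, Tie1, Kdr and Flt1). The ETS letters AGGAAG or CCGGAA, on either strand, were found in 5 of the 6, against 45.2% of 32851 promoters of the same length. AGGAAG was in 4 (35.4% of all), CCGGAA in Kdr alone (14.9%), GATA letters AGATAA in Tek alone (11.2%), SP1 letters GGGCGG in Kdr and Flt1 (35.7%) and TATA letters TATAAA in Flt1 alone (13.6%). Some genes have several starts and 1 was searched. The 250 bases before the start are shown for the 3 genes with 2 ETS matches there, 5′ to 3′ on the strand of the gene, with ETS matches on either strand in capitals (CTTCCT is AGGAAG on the other strand). They lie at chr5:147726012-147726261 (minus strand), chr2:32646345-32646594 (plus strand) and chr3:137340828-137341077 (plus strand).
Flt1: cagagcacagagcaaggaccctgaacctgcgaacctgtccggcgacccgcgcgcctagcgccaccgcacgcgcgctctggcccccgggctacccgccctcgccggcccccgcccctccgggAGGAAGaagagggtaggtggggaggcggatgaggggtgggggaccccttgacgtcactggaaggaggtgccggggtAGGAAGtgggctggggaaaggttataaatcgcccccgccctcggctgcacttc
Eng: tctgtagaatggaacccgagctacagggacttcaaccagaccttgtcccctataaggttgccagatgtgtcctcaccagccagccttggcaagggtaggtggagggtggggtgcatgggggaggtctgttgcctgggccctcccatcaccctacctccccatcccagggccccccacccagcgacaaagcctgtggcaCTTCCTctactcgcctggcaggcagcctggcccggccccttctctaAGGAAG
Emcn: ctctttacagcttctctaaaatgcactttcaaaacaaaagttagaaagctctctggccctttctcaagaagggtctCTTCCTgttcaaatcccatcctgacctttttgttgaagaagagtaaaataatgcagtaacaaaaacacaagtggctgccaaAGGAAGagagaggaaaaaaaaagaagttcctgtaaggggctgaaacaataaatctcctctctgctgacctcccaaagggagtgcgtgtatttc
Relative to the start, the matches begin at -129 and -53 in Flt1, at -52 and -6 in Eng and at -174 and -93 in Emcn. A match of 6 letters is a description and not a measured binding site.

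Of 19 further pan-endothelial genes measured, 7 were higher and 12 lower after FAP depletion (median -0.16, against 0.16 for the 10). In the tumours labelled aSMA depleted 15 were higher (median 0.26), and limma called 0 in either line. Podxl, the sialomucin podocalyxin that epithelia also make, was at 1.22 ± 0.48 in the FAP line. Ptprb, the phosphatase VE-PTP, was at 7.97, 8.04 and 7.45 in the aSMA-TK controls against 9.17, 8.16 and 9.10 in the tumours labelled aSMA depleted (0.99 ± 0.64). The arterial transcription factor gene Sox17 had a difference of 0.52 ± 0.25 there, and both Ptprb and Sox17 had all 3 values above the controls. That held for 5 of the 19 genes in the aSMA line and 0 in the FAP line, against 7.43% and 5.60% of all genes. Single genes named here and from the lists below were picked for the smallest p in either depletion comparison. Their distance from the controls therefore owes something to that choice.

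Ligands and co-receptors of the same pathways also stayed below the threshold. Of 7 VEGF genes, 4 were higher after FAP depletion (median 0.07) and 5 in the aSMA line (median 0.45). Vegfa, the main ligand of Kdr, had 9.93, 9.85 and 10.86 in the FAP-TK controls, 9.85, 10.84 and 10.94 after depletion (0.33 ± 0.47), and 9.27, 9.08 and 9.82 in the aSMA-TK controls against 10.05, 11.03 and 9.34 in the tumours labelled aSMA depleted (0.75 ± 0.47). The lymphatic growth factor gene Vegfd was at -0.76 ± 0.32 in the FAP line and 0.55 ± 0.32 in the aSMA line, and Vegfc at -0.12 ± 0.23 and 0.42 ± 0.23. The difference between the effects had an unadjusted p of 0.0176 for Vegfd, and limma called no VEGF gene.

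Of the 4 genes in the angiopoietin list (Angpt1, Angpt2, Angpt4 and Svep1, which is not an angiopoietin), 1 was higher in the FAP line (median -0.47). In the aSMA line 3 were higher (median 0.37). Angpt2, which destabilises vessels through Tek and is also a tip cell gene, was at 5.42, 5.27 and 5.66 in the aSMA-TK controls against 5.69, 7.03 and 6.29 in the tumours labelled aSMA depleted, all higher (0.89 ± 0.38, limma adjusted p = 0.944). Angpt1, its counterpart made by mural cells, was at 0.41 ± 0.48 there and -0.46 ± 0.48 in the FAP line. Svep1, an extracellular protein that binds Tie1, was lower in all 3 FAP depleted tumours (-1.03 ± 0.46, adjusted p = 1.00). In this list 2 of 4 genes lay above all controls in the aSMA line (7.43% of all genes) and 1 lay below all controls in the FAP line (2.50%).

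In the endoglin and ALK1 pathway 7 of 11 genes were higher in the FAP line (median 0.01) and 9 of 11 in the aSMA line (median 0.11). The BMP target Id2 was at 12.90, 12.35 and 12.77 in the aSMA-TK controls against 14.75, 14.16 and 13.13 in the tumours labelled aSMA depleted (1.34 ± 0.54), and the type II receptor Bmpr2 differed there by 1.29 ± 0.64. Both had all 3 values above the controls, which held for 3 of the 11 genes in the aSMA line and for 7.43% of all genes. The ligand Gdf2 (BMP9), made mainly in liver, lay between 3.08 and 4.03 throughout. Notch and ephrin genes were higher in 8 of 10 cases in the FAP line (median 0.29) and 5 of 10 in the aSMA line (median -0.01). The Notch ligand Jag1 was below its controls in all 3 tumours labelled aSMA depleted (-1.06 ± 0.42) and at 0.38 ± 0.42 in the FAP line, while Jag2 and the endothelial receptor Notch4 differed by 0.31 ± 0.16 and 0.29 ± 0.17 in the FAP line. In the aSMA line 1 of the 10 Notch and ephrin genes lay below all controls (5.08% of all genes) and 1 above (7.43%). Neither pathway had a called gene in either comparison.

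Tip cell genes, which mark the leading cells of sprouts, were higher for 6 of 10 in both lines (medians 0.24 and 0.12). Unc5b, a netrin receptor, was at 1.02 ± 0.41 and the pericyte-recruiting ligand gene Pdgfb at 0.68 ± 0.32 in the FAP line. Of 11 genes for leukocyte adhesion 4 were higher in the FAP line (median -0.10) and 9 in the aSMA line (median 0.43). F11r, a junction protein that epithelial cells also carry, was above its controls in all 3 FAP depleted tumours (0.96 ± 0.26, unadjusted p = 0.00480, limma adjusted p = 1.00). Epithelial genes were also higher there, 10 of 10 (median 0.89), against 59.9% of all genes. Their part in the F11r difference was not tested. Ackr1 of venules (0.58 ± 0.22) and the junction gene Jam3 (0.43 ± 0.17) were above their controls in the tumours labelled aSMA depleted. In the adhesion list 4 of 11 genes lay above all controls in the aSMA line and 1 in the FAP line, against 7.43% and 5.60% of all genes.

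The lymphatic list had 7 of 7 measured genes higher in the tumours labelled aSMA depleted (median 0.68) and 4 of 7 in the FAP line (median 0.12). Lyve1, a hyaluronan receptor of lymphatic vessels and of some macrophages, stood at 7.21, 6.77 and 6.87 in the aSMA-TK controls and at 10.25, 8.88 and 10.37 in the tumours labelled aSMA depleted. The groups were apart by 2.89 ± 1.00 (unadjusted p = 0.0163, limma adjusted p = 0.944). In the FAP line it was at 5.91, 8.89 and 10.02 against 7.57, 5.18 and 7.62, controls first. Prox1, the transcription factor that defines lymphatic identity and is also made in islets and ducts, was at 6.11, 5.89 and 6.32 and then 8.04, 6.10 and 6.21, with only replicate 1 of the tumours labelled aSMA depleted above its controls. Mmrn1 was likewise high in that tumour alone, at 5.64 against 3.83 to 4.24 in the other 5 of the aSMA line. The same tumour had the highest islet mean of the line, 9.22 against 6.04 to 7.54 in the other 5. In the FAP line Prox1 was above its controls in all 3 depleted tumours (0.90 ± 0.44). Of the 7 lymphatic genes, 2 lay above all controls in the aSMA line and 1 in the FAP line, against 7.43% and 5.60% of all genes. Macrophage genes, among which Mrc1 differed by 2.54 ± 1.43 and C1qb by 1.97 ± 1.29, were higher for 10 of 11 in the aSMA line. The part of macrophages in the Lyve1 difference was not tested.

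**Figure D5:**
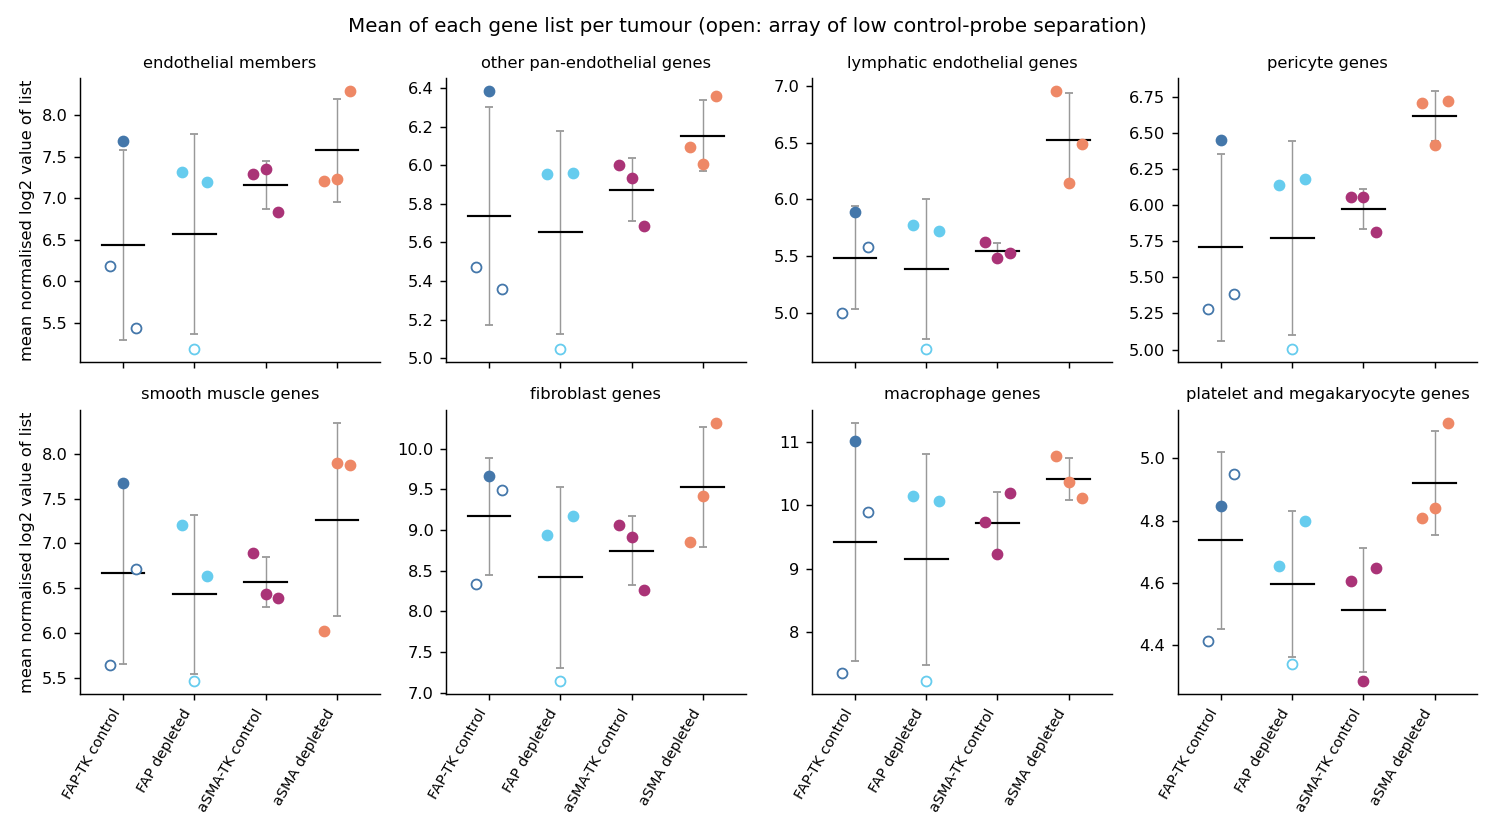
Mean normalised log2 value of each gene list per tumour (y axis) by group (x axis), with group mean, SD and open circles as in the plot of single genes. The further pan-endothelial and pericyte lists repeat the shape of the endothelial one, with the 3 open circles lowest, while the lymphatic, smooth muscle, fibroblast, macrophage and platelet lists do not place all 3 open circles lowest. Among the lists not plotted, the epithelial, islet, Notch and ephrin, tip cell and leukocyte adhesion lists also have their lowest means on those 3 arrays.

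Genes of cells next to the endothelium were also described. Pericyte genes were higher for 6 of 9 in the FAP line (median 0.03) and 8 of 9 in the tumours labelled aSMA depleted (median 0.69). Their mean correlated with that of the endothelial genes at r = 0.92 over 12 arrays, group means removed. The same r was 0.97 for further pan-endothelial, 0.90 for Notch and ephrin and 0.85 for tip cell genes. It was 0.68 for smooth muscle and 0.75 for fibroblast genes, and 0.79 for epithelial genes. The 12 arrays include the 3 of low separation, and for these lists r was not computed without them. Abcc9 and Kcnj8, subunits of the potassium channel of pericytes, were above their controls in all 3 tumours labelled aSMA depleted (1.32 ± 0.45 and 1.15 ± 0.43, limma adjusted p = 0.944). They were named because their p was the smallest of the list. There 3 of the 9 pericyte genes lay above all controls, against 7.43% of all genes. Smooth muscle genes were higher for 5 of 9 (median 0.07) and 9 of 9 (median 0.59), with Synpo2 at 0.53 ± 0.25 and Cnn1 at 1.13 ± 0.65 in the aSMA line. Fibroblast genes were higher for 0 of 10 after FAP depletion (median -0.76) and 10 of 10 in the aSMA line (median 0.41), where Dcn differed by 2.71 ± 1.15. Limma called none of these genes in either depletion comparison.

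Other lists were described beside the endothelial genes. Macrophage genes were higher for 3 of 11 in the FAP line (median -0.44). Acinar genes were higher for 8 of 8 in the FAP line (median 1.36; Cela3b 2.01 ± 0.92, Ptf1a 0.20 ± 0.12) and 5 of 8 in the aSMA line (median 0.36). Islet genes were higher for 6 of 6 in both lines (medians 0.36 and 0.92; Ins2 0.98 ± 0.54 and Ppy 1.52 ± 1.10 in the latter). Epithelial genes were higher for 4 of 10 in the aSMA line (median -0.26), and Cldn7 and Krt7 were at 0.86 ± 0.24 and 0.90 ± 0.28 in the FAP line. Hypoxia genes, which include inducers of vessel growth, were higher for 10 of 10 in the FAP line (median 0.68; Pgk1 1.32 ± 0.45, Ndrg1 1.36 ± 0.55) and 8 of 10 in the aSMA line (median 0.65). Immediate early genes, which tissue handling can induce, were higher for 7 of 8 (median 0.65; Atf3 0.68 ± 0.46) and 4 of 8 (median 0.03; Dusp1 2.66 ± 1.44). Platelet genes were higher for 2 of 8 (median -0.04) and 7 of 8 (median 0.22), with Ppbp at 0.91 ± 0.44 and Gp5 at -0.24 ± 0.09 in the aSMA line. None of these was called by limma in either depletion comparison.

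The control tumours of the 2 lines were also compared, with line and array background confounded. All 10 endothelial genes were higher in the aSMA-TK controls, by 0.04 (Vwf) to 1.19 (Cdh5 and Plvap), with a median of 0.72 against 0.07 for all genes. Of all genes 58.2% were higher. None of the 10 passed the test, which called 7.80% of all genes (4.78% higher, 3.02% lower). At an unadjusted p under 0.05 stood 1 of the 10, Flt1, and 28.2% of all genes. Flt1 was at 5.63 ± 0.62 (SD) in the FAP-TK and 6.49 ± 0.18 in the aSMA-TK controls, the only one of the 10 whose groups did not overlap (0.86 ± 0.37, adjusted p = 0.162), as 35.0% of all genes did not (21.3% higher, 13.8% lower). Without the 3 arrays of low separation, which leave FAP-TK control replicate 2 as the only control of its line, 9 of 10 genes were lower in the aSMA-TK controls, by a mean of -0.53. In the deposited values, where the median of all genes was at -0.39, 7 of 10 were lower. In the median-centred values 9 of 10 were higher, by a mean of 0.30. The direction of this difference thus turned with the arrays kept and in the values as deposited, but not with median centring. The spread between tumours was smaller in the aSMA-TK controls than in the FAP-TK controls for all 10 genes, for example 0.36 against 2.00 (SD) for Cdh5 and 0.16 against 1.55 for Eng, a difference that was not tested.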

How the data were processed

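Each tumour was measured on 1 one-colour array (biotin-labelled cRNA, per the labels' protocols). The deposited table holds the authors' processed log2 intensities of 72688 probe sets, a scale read from the values (1.64 to 19.93). Per the submitters' processing notes limma was used, and which background correction and summarization came before is not given in the sources used here.

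After 6732 control probe sets were left out, 65956 were quantile normalised, because array medians differed. Probe sets with exactly 1 symbol (30604; 2146 had several) gave 30142 genes, the probe set of highest mean standing for a gene. Symbols were updated through RefSeq GRCm38.p6 (827 changed). limma 3.58.1 (R 4.3.3) was fitted over 12 arrays with 1 mean per group, with moderated two-sided tests, Benjamini-Hochberg adjustment over all genes and calls at an adjusted p under 0.05. For each gene the spread was estimated jointly over all groups, so the FAP-line arrays also enter the errors of the aSMA line. The fit was tested on simulated data. Single genes also had exact two-sided permutation tests. The number of arrays limits the precision.

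The endothelial genes and all lists were chosen with earlier results of these data known. Named genes were these 10, Fap, Acta2, the 3 of smallest p in either depletion comparison from each vessel list, 2 from each other list, and the 10 most correlated genes. List genes not measured by a probe set of 1 symbol included Egfl7, Nrp1, Ccl21a, Gp1ba, Gp1bb, Pdgfra, Pnlip, Amy2a5, Ins1, Pcsk2 and Junb. Protein sequences were not used here.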

Additional observations from a re-analysis of the deposited data

How the results depend on the processing

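No paired analysis was possible because the labels give no number that is shared between groups. No scan date or slide is given in the sources used here, so none was used as a block. Of 572 alternative values of the single-gene differences given (all 10 in both depletion comparisons, Vwf between the effects, and Flt1, Tie1, Cdh5, Plvap, Eng and Vwf between control groups) under 22 settings, 510 kept their direction and side of the threshold, 60 turned in sign and 2 came to pass; none of the 10 passed in a depletion comparison under any setting run. The 2 that passed were control-line differences with array weights: Flt1 (1.23, limma adjusted p = 0.0195) and Tie1 (1.04, adjusted p = 0.0477). Eng also passed there with separation as a covariate, at -1.54 (adjusted p = 0.0291). The array weights were 2.20 for FAP-TK control replicate 3, an array of low separation, and 0.41 for replicate 2, which was not. The filter on dim genes kept Cdh5 and Eng alone of the 10.

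Signs turned as follows; the cause was not tested. In the FAP line, without the arrays of low separation, Cdh5 went to -0.39, Kdr to -0.42, Tie1 to -0.23, Emcn to -0.68 and Plvap to -0.42; with separation as a covariate, to -0.52, -0.15, -0.081, -0.48 and -0.15 in that order. Array weights, which gave FAP-TK control replicate 2 a weight of 0.41, turned Pecam1 to 1.17, Tek to 0.52 and Eng to 1.22. Deposited and median-centred values put Emcn at -0.069 and -0.070. Leaving out 1 array each, differences ran from -0.70 to 0.65 for Pecam1, -0.93 to 1.37 for Cdh5, -0.22 to 0.92 for Kdr, -0.74 to 0.18 for Tek, -0.15 to 0.51 for Tie1, -0.71 to 0.96 for Emcn, -0.68 to 0.97 for Eng and -0.076 to 1.61 for Plvap. In the aSMA line Kdr turned to -0.10 with array weights and -0.040 with the covariate. Leaving out 1 array each, values ran from -0.24 to 0.27 for Kdr, -0.35 to 0.10 for Tek, -0.20 to 0.24 for Tie1, -0.37 to 0.73 for Emcn and -0.046 to 0.91 for Eng.

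Between the control groups, Tie1, Cdh5, Plvap, Eng and Vwf went to -0.0086, -0.58, -0.83, -1.20 and -0.24 without the arrays of low separation, and to -0.025, -0.96, -1.02, -1.54 and -0.45 with the covariate. Deposited values put Tie1, Eng and Vwf at -0.11, -0.30 and -0.59, and median centring put Vwf at -0.14; leaving out 1 array, Vwf ran from -0.12 to 0.18. Pecam1, Emcn, Tek and Kdr turned too, to -0.45, -0.24, -0.30 and -0.043 as deposited, -0.96, -0.91, -0.53 and -0.38 without the arrays of low separation, and -0.93, -1.05, -0.39 and -0.37 with the covariate. Genes called there, 2350 in the fit as reported (61.3% higher), were 5104 at an adjusted p under 0.1, 12443 as deposited (3.41% higher), 5769 median centred, 1536 with an offset of 50, 0 with the filter on dim genes, 212 with only the groups compared, 6658 with array weights (Flt1 and Tie1 among them), 357 without the arrays of low separation (23.2% higher), 1012 with the covariate (44.7% higher), and 508 to 3130 leaving out 1 array. In the FAP comparison 0 genes became 13 without the arrays of low separation and 0 to 4 leaving out 1 array, in the aSMA comparison 0 to 16 leaving out 1 array, and for the difference between the effects 0 to 1; none was one of the 10. With 3 arrays a group, differences of the size of the intervals given cannot be detected, and Vwf, Tek, Tie1 and Plvap lay within the background probe sets on several arrays.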
